A study of Homo sapiens with 4 samples.

Results

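The 10 genes described here, DAZL, DDX4, MAEL, SYCP1, SYCP3, TDRD1, TDRD9, BRDT, ASZ1 and HORMAD1, are active in germ cells and are normally silent in other tissues. They were chosen by name, out of the 19974 protein-coding genes that the reference table used here lists on chromosomes 1 to 22 and X. Each was placed on hg19 by a start and an end given to 0.01 Mb, and was described over its body and over 100 kb on each side, its flanks. All 10 could be placed and none was dropped. The peak lists hold no RNA measurement, so whether the genes were silent in these cells was not checked.

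The study profiled H3K9me3, a histone mark of heterochromatin, by chromatin immunoprecipitation and sequencing in U2OS, an established human osteosarcoma line, here under the label KRAB-IDR3-TCF3, which the labels do not explain. There were 2 samples precipitated with an antibody against H3K9me3 and 2 input samples taken without antibody, all from cells fixed with 1% formaldehyde for 10 min. The deposited values are 2 broad peak lists, list 1 with 326674 and list 2 with 264919 peaks on these chromosomes, and neither was assigned to a sample, because the input labels name list 1 although its peak names, like those of list 2, call it an immunoprecipitation. The lists have no replicates and no read counts, so no value below has an error or a test, and each is given in both lists.

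Germline genes protect the genome of sperm and egg precursors and carry out meiosis. The piRNA pathway, in which small RNAs guide PIWI proteins to transposon transcripts, uses DDX4, MAEL, TDRD1, TDRD9 and ASZ1, while SYCP1, SYCP3 and HORMAD1 build the paired chromosome axes of meiosis. In somatic cells such genes are known to be shut off by DNA methylation at CpG-rich promoters and by a Polycomb-type complex that holds E2F6 and the E-box binding pair MGA and MAX. Work in mouse cells also ties the H3K9 methyltransferases to their repression. HP1 proteins bind H3K9me3, and the mark is best known from satellites, transposons and zinc finger gene clusters.

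Both of those DNA-binding factors have short known sites, and the promoter sequences were searched for their letters. RefSeq windows on GRCh38.p14, from 250 bases before to 50 after each listed start, matched 9 of the 10 genes with 13 entries, and HORMAD1 had no entry. The letters TCCCGC, the core of an E2F6-type site, and CACGTG, the E-box, were searched on both strands, and no match of one overlapped the other. TCCCGC was found for 6 of the 9 genes, CACGTG for 4, and at least one of them for 8, all but DDX4. Among protein-coding genes with a window, the same shares by gene were 40.7%, 10.9% and 46.2%. Among all genes with a window they were 30.5%, 8.79% and 35.6%. Over single entries, 84.6% of those of the 9 genes held at least one of them, against 31.7% of all 34961 windows on these chromosomes and 38.7% of the windows of protein-coding genes. A second list of germline genes, matched for 26 of 30 symbols, held at least one of the letters in 47.2% of its entries. CACGTG stood in 46.2% of the entries of the 9 genes, in 19.4% of those of the second germline list, in 8.34% of the windows of protein-coding genes and in 7.27% of all windows. Entries of the same gene can overlap. Those of BRDT, and those of TDRD1, held the same E-boxes, which were counted in each entry. TCCCGC stood in 53.8% of the entries of the 9 genes, in 41.7% of those of the second list, in 33.5% of the windows of protein-coding genes and in 26.9% of all windows.

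CpG content was nearer to that of protein-coding genes than to that of all windows. The ratio of observed to expected CpG had a median of 0.864 over the entries of the 9 genes, 0.753 in the second germline list, 0.738 over the windows of protein-coding genes and 0.580 over all windows. The highest was 1.12 at the first MAEL entry, and the lowest was 0.120 at the DDX4 entry, which lay 28.8 kb inside the annotated gene and so does not describe its first start. The windows of TDRD1, BRDT, ASZ1 and SYCP3 are shown, up to the listed start and with matches in capitals, as examples of each kind of letters. No window shown holds both kinds. The body of TDRD1 was covered above its flanks in both lists, and those of BRDT, ASZ1 and SYCP3 below theirs. Any link between the letters and the coverage was not tested. TDRD1 (plus strand, chr10:114179037-114179286 on GRCh38.p14, a start 4.41 kb inside the annotated gene) and BRDT (plus strand, chr1:91949121-91949370) hold the E-box. ASZ1 (minus strand, chr7:117427494-117427743) and SYCP3 (minus strand, chr12:101739463-101739712) hold the E2F6-type letters, which in SYCP3 are read on the other strand.
TDRD1: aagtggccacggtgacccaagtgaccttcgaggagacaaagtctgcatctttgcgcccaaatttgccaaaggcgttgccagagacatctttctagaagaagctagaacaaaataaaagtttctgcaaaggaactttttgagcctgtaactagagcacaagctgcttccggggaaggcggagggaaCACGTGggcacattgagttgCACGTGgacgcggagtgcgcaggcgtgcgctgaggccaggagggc
BRDT: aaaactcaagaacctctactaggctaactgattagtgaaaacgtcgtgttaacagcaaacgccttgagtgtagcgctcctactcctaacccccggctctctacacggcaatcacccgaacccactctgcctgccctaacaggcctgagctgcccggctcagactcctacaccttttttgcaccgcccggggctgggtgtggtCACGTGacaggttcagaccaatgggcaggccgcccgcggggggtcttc
ASZ1: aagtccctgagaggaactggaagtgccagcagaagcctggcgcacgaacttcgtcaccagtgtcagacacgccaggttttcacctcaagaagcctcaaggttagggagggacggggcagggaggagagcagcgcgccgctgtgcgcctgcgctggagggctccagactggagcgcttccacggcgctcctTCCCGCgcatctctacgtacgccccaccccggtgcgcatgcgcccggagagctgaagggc
SYCP3: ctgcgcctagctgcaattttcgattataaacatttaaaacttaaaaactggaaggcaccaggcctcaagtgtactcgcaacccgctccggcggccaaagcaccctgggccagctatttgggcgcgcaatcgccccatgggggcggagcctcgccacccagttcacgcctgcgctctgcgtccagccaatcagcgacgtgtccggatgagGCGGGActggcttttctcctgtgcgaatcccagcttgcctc
The E-boxes of TDRD1 began 65 and 45 bases before the start and that of BRDT 48 bases before it, and the letters began 60 bases before it in ASZ1 and 41 in SYCP3. In TDRD9, SYCP1 and both MAEL entries the TCCCGC match lay after the start. A match is only a run of letters, and no binding was measured. These positions are on another build than the peaks and cannot be set against them.

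The bodies of the 10 genes were not covered as a group, but ranged from free of peaks to mostly covered. The covered share of the body, the percentage of its base pairs under a peak, had a median of 42.6% in list 1 (range 0 to 78.5%) and of 15.7% in list 2 (range 0 to 40.2%). The flanks, as the mean of both sides, had a median of 38.5% in list 1 (range 16.6 to 68.0%) and of 17.6% in list 2 (range 2.11 to 39.7%). Tiles of 50 kb along the chromosomes had a median of 49.0% in list 1 and 21.3% in list 2. Genes of the same chromosome differed as much as the whole set, since MAEL, SYCP1, BRDT and HORMAD1, the 4 genes on chromosome 1, spanned the same range of 0 to 78.5% (list 1) and 0 to 40.2% (list 2).

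Body exceeded flanks in a minority of the genes, as it also did in a minority of the 50 kb tiles. It did so in 4 of 10 genes in list 1, where 49.6% of the 50 kb tiles exceeded their own flanks, and in 3 of 10 in list 2, where 45.7% of tiles did. Body lay below flanks in 6 genes of list 1 (49.9% of tiles) and in 7 of list 2 (53.3% of tiles). TDRD1 and TDRD9 exceeded their flanks in both lists. DDX4 and MAEL did so in list 1, SYCP1 did so in list 2, and DAZL, SYCP3, BRDT, ASZ1 and HORMAD1 lay below their flanks in both lists.

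**Figure D1:**
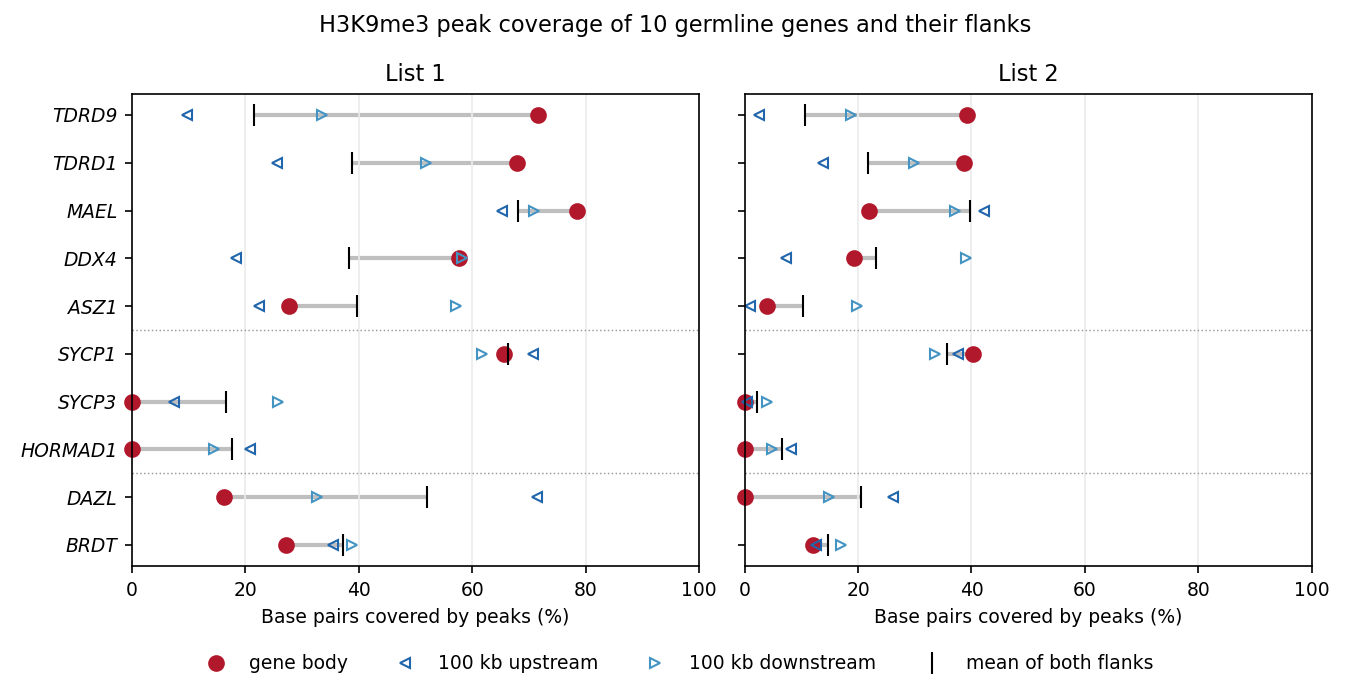
Share of base pairs covered by peaks (%, x axis) in the body of each germline gene (red point), in the 100 kb upstream and downstream (open triangles) and in the mean of both flanks (black tick), for list 1 (left) and list 2 (right). TDRD9 and TDRD1 lie right of their flanks in both lists, and SYCP3 and HORMAD1 lie at 0 in both.

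With a margin of 10 percentage points, 9 of the 10 genes differed from their flanks in list 1 and 4 in list 2. In list 1 the body was at least 10 points above its flanks in 4 genes (25.0% of tiles) and at least 10 points below in 5 (25.0% of tiles). In list 2 there were 2 above (20.5% of tiles) and 2 below (20.6% of tiles). These tiles are 50 kb long, while the bodies ranged from 10 to 140 kb. Of tiles of the gene's own length, 24.4% had a lower list 1 difference than SYCP3, 23.2% than BRDT and 19.2% than ASZ1. The share was 18.0% for HORMAD1 and 3.61% for DAZL. Among genes above their flanks it was 73.3% for MAEL, 90.8% for DDX4, 96.0% for TDRD1 and 99.9% for TDRD9. The median difference over genes was -5.34 points in list 1 and -3.28 points in list 2, against 0 and -0.78 over tiles. When all base pairs of the 10 bodies were pooled, which gives long genes more weight in the bodies only, the direction turned. In list 1, 53.2% of 620 kb of body and 39.6% of 2000 kb of flank were covered, and in list 2 25.8% and 18.5%. SYCP1 and TDRD9 gave 140 and 130 kb of the body length, while each gene gave the same length of flank. The part of single genes in this turn was not tested.

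**Figure D2:**
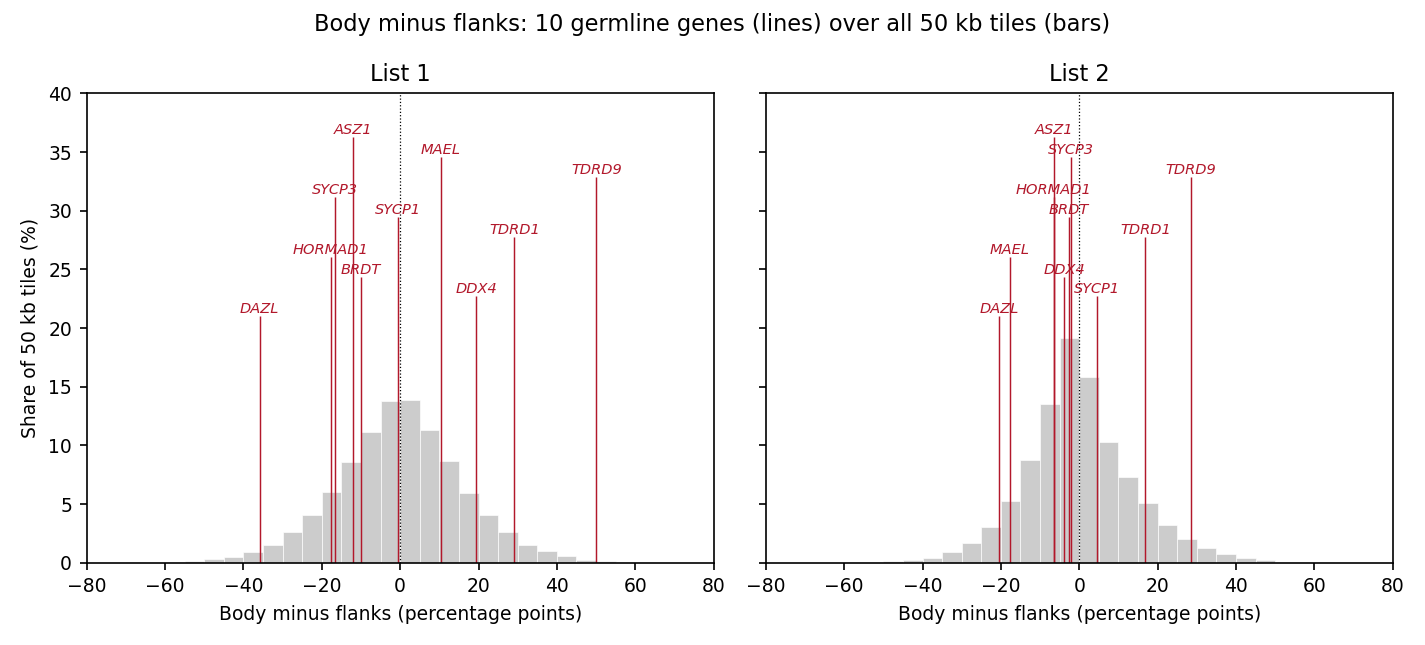
Covered share of the body minus that of the flanks (percentage points, x axis) for the 10 germline genes (red lines, of arbitrary height) over the distribution of all 50 kb tiles with 100 kb flanks (grey bars, share of tiles in % on the y axis), for list 1 (left) and list 2 (right). TDRD9 at 50.1 and 28.5 points is the rightmost gene in both lists, and DAZL at -35.9 and -20.5 points the leftmost. The tiles are 50 kb long, while the body of DAZL is 20 kb. Of tiles of 20 kb, 3.61% in list 1 and 9.69% in list 2 had a lower difference than DAZL.

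Among the piRNA pathway genes, TDRD9 had the largest excess of body over flanks of all 10 genes in both lists. TDRD9 encodes a Tudor-domain helicase that acts with a PIWI protein in transposon silencing. Its 130 kb body (chr14:104390001-104520000) held 16 peaks in list 1 and 19 in list 2, which covered 71.6% and 39.1% of it. The upstream 100 kb, on the side of ATP5MJ, was covered 9.64% and 2.62%, and the downstream 100 kb 33.4% and 18.7%. The body thus exceeded the mean of its flanks by 50.1 points in list 1 and 28.5 points in list 2, more than 99.9% and 98.2% of tiles of the same length did. The list 1 excess shrank to 24.2 points for base pairs covered in both lists, to 18.8 points for peaks above the median fold of the list, and to 2.88 points for peaks whose −log10 p reached the minimum of list 2. In list 2 it was 17.0 points for peaks above the median fold.

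The TDRD9 signal began near the start of the gene and ran past its end. The 10 kb before the start held no covered base pair in either list, and the first 10 kb of the body was covered 38.4% in list 1 and 28.7% in list 2. A list 1 peak of 34.0 kb, chr14:104508374-104542400, crossed the gene end with a fold enrichment over the peak caller's background of 1.83. It was wider than 99.1% of the peaks of list 1. In list 2 the same stretch was broken into smaller peaks, and the widest peak in the body was 5.55 kb. The wider surroundings, 1 Mb beyond each flank, were covered 21.96% and 10.4%, so the body exceeded them by 49.6 and 28.7 points.

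TDRD1, a Tudor-domain scaffold that binds methylated PIWI proteins, showed the same direction with a smaller size. Its 50 kb body (chr10:115940001-115990000) held 8 peaks in each list and was covered 67.9% in list 1 and 38.6% in list 2. The upstream flank, towards CCDC186, had 25.6% and 13.7%, and the downstream flank, towards VWA2, 51.8% and 29.8%. Its differences were 29.2 and 16.8 points, above 96.0% and 88.9% of 50 kb tiles. The list 1 difference was 12.9 points with flanks of 200 kb and 11.8 points for base pairs covered in both lists. With flanks of 200 kb the list 2 difference was 8.05 points. In list 2 the direction turned to -6.22 points when peaks at or below the median fold of the list were dropped. Against the surroundings at 1 Mb, the body was 9.94 points higher in list 1 and 1.86 points higher in list 2.

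MAEL and DDX4 lay above their flanks in list 1 and below them in list 2. MAEL takes part in piRNA-guided silencing in the nucleus and in germ granules. Its 30 kb body (chr1:166960001-166990000) had the highest list 1 share of the 10 genes, 78.5%, against 65.2% upstream and 70.9% downstream. In list 2 it was covered 22.01%, against 42.3% upstream and 37.1% downstream. All base pairs covered in list 2 were also covered in list 1, but they were 28.1% of the list 1 length. The differences of 10.4 and -17.7 points both turned under an alternative, to -27.5 points for the list 1 peaks whose −log10 p reached the minimum of list 2, and in list 2 to 3.24 points when the body was widened by 5 kb on each side.

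DDX4, the germ cell DEAD-box helicase also called VASA, was covered 57.6% over its 80 kb body (chr5:55030001-55110000) in list 1 and 19.3% in list 2. Its flanks were uneven. The upstream side, towards SLC38A9, was covered 18.3% and 7.25%, while the downstream side, towards IL31RA, was covered 58.2% and 39.0%. The body therefore lay 39.3 and 12.0 points above the upstream flank, but 0.53 and 19.7 points below the downstream one. The list 1 difference of 19.4 points turned to -11.5 points under the same p limit and to -3.25 points for base pairs covered in both lists. The list 2 difference of -3.82 points turned to 4.28 points with flanks of 200 kb.

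ASZ1, an ankyrin-repeat protein of the mitochondrial surface that germ granules need, was the sparsest of the piRNA genes. Its 70 kb body (chr7:117000001-117070000) was covered 27.6% in list 1 and 4.03% in list 2. The upstream side, towards CFTR, was covered 22.4% and 0.885%, and the downstream side, towards WNT2, 57.05% and 19.9%. Its difference was -12.1 points in list 1 and -6.34 points in list 2. The list 1 value turned to 4.53 points with peaks above the median fold and to 3.08 points under the p limit. Its highest fold, 2.19 in list 1 and 2.38 in list 2, came from overlapping peaks at chr7:117027741-117030390 and chr7:117028428-117028899.

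**Figure D3:**
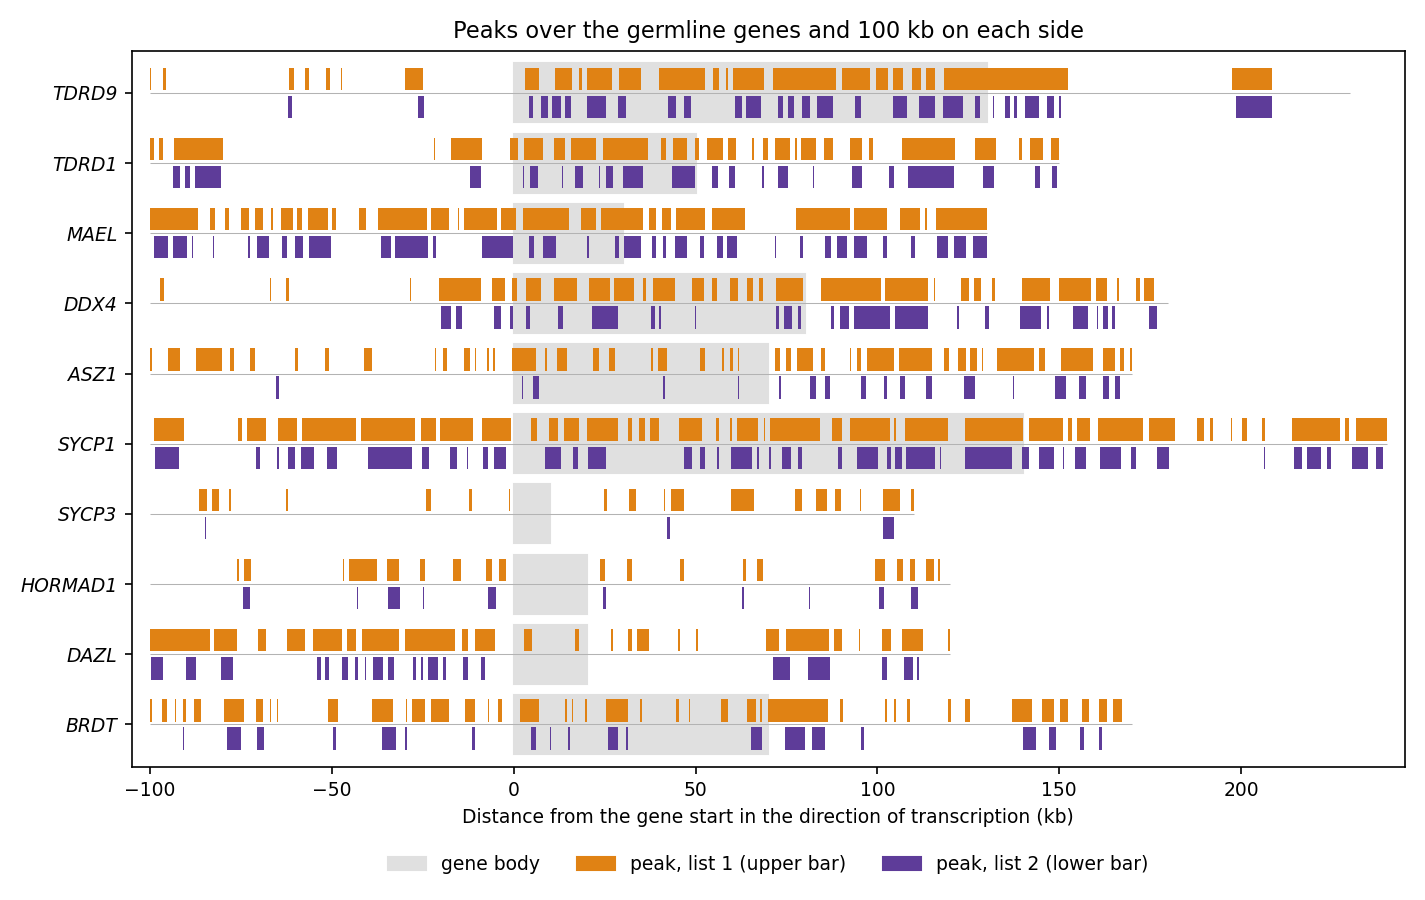
Peaks of list 1 (orange, upper bars) and list 2 (purple, lower bars) over each germline gene (grey box) and 100 kb on each side, by distance from the rounded gene start in the direction of transcription (kb). The TDRD9 box is covered 71.6% in list 1 and 39.1% in list 2, while the 100 kb before it hold few peaks. The SYCP3 and HORMAD1 boxes are empty.

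The meiotic axis genes differed widely in coverage, with SYCP1 mostly covered in list 1 and SYCP3 and HORMAD1 free of peaks in both lists. SYCP1, which forms the transverse filaments that zip paired chromosomes together, lay in a densely covered stretch of chromosome 1. Its 140 kb body (chr1:115400001-115540000) held 18 peaks in list 1 and 19 in list 2 and was covered 65.7% and 40.2%, the highest list 2 share of the 10 genes. Its flanks differed little from it, at 70.8% and 37.7% upstream, towards SIKE1, and 61.8% and 33.6% downstream, towards TSHB. The differences were -0.63 points in list 1 and 4.58 points in list 2. Both changed sign among the alternatives, with -13.0 and 5.12 points as the outer values for list 1, and -1.42 and 7.89 points for list 2, leaving out the q limit.

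SYCP1 also carried the highest folds of the 10 bodies. The peak chr1:115523963-115540136 of list 1, at the gene's last part, was 16.2 kb wide with a fold of 2.48. Its list 2 counterpart, chr1:115523996-115537034, was 13.0 kb wide with a fold of 3.15. They ranked above 99.2% and 99.4% of the peaks of their lists by fold. From the middle of the body to its end the shares were 79.5% in list 1 and 49.7% in list 2, against 51.8% and 30.7% from the start to the middle. In list 2, SYCP1 held 2 peaks with a q of 0.05 or less, the sole body peaks of the 10 genes to reach it in either list. Of all peaks, 0.19% reached it in list 1 and 2.07% in list 2.

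SYCP3, a core component of the axial element, had no peak in its 10 kb body (chr12:102120001-102130000) in either list. It sat in a peak-free stretch of 25.7 kb in list 1, chr12:102105257-102130908, and of 127 kb in list 2, chr12:102087940-102214683. The flanks were covered 7.45% and 0.37% upstream, towards GNPTAB, and 25.7% and 3.86% downstream, towards CHPT1, while 1 Mb beyond each flank the shares were 39.2% and 15.0%. Bare tiles of 10 kb were not rare, at 11.2% of such tiles in list 1 and 29.9% in list 2.

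HORMAD1, an axis protein that monitors meiotic synapsis and recombination, was also free of peaks in both lists over its 20 kb body (chr1:150670001-150690000). The peak-free stretch was 26.0 kb in list 1, chr1:150666298-150692259, and 29.5 kb in list 2, chr1:150665480-150694936. Its flanks were covered 20.8% and 8.26% upstream, towards CTSS, and 14.6% and 4.87% downstream, towards GOLPH3L. The surroundings at 1 Mb were sparse too, at 21.4% and 7.33%. Of the tiles of 20 kb, 5.74% held no covered base pair in list 1 and 18.9% in list 2.

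DAZL showed the largest deficit of body against flanks. DAZL encodes an RNA-binding protein that promotes translation of germ cell transcripts. Its 20 kb body (chr3:16630001-16650000) held 2 peaks in list 1, covering 16.2%, and none in list 2. Upstream, towards PLCL2, the share was 71.4% in list 1 and 26.2% in list 2, while downstream, towards RFTN1, it was 32.7% and 14.8%. The differences of -35.9 and -20.5 points lay below those of all but 3.61% and 9.69% of tiles of its length. Both kept their direction in the alternatives other than the q limit, between -45.05 and -14.4 points for list 1 and between -21.3 and -10.9 points for list 2. In list 2, where the body held no peak, only a wider body could have turned the direction.

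The DAZL peaks of list 1 were weak ones. The larger, chr3:16644981-16647251, was 2.27 kb wide with a fold of 1.55, below the list median of 1.64. The peak-free stretch of list 2 around the body, chr3:16578759-16658011, was 79.3 kb long and reached past both gene ends.

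BRDT, a testis bromodomain protein that binds acetylated histones during sperm formation, was covered 27.1% in list 1 and 12.0% in list 2 over its 70 kb body (chr1:92410001-92480000). The upstream side, towards TGFBR3, was covered 35.5% and 12.5%, and the downstream side, towards EPHX4, 38.8% and 17.0%. Its differences were -10.05 and -2.74 points. A list 1 peak of 16.4 kb with a fold of 2.00, chr1:92479855-92496291, overlapped the body by its first base pairs and lay otherwise in the downstream flank.

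Peaks near gene starts were common, as they were in tiles at large. The zone of 10 kb on each side of the rounded start was touched by a peak in 10 of 10 genes in list 1, where 94.2% of 20 kb tiles were touched, and in 9 of 10 in list 2, where 81.0% of tiles were. SYCP3 was the exception in list 2, and its list 1 zone was covered 1.51%. The median covered share of the zone was 38.9% in list 1 and 12.7% in list 2. MAEL had the highest, at 84.3% and 58.7%. A second listed start of MAEL lay 13.7 kb inside the annotated gene, and the zone was set on the rounded start only. Since starts are known to 0.01 Mb on hg19, whether a peak lies on a promoter itself was not resolved.

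The 3 least covered genes were also the shortest, but coverage did not follow length throughout. DAZL, SYCP3 and HORMAD1, the 3 shortest bodies, were the 3 least covered in both lists. Body minus flanks had the same sign in both lists in 7 of 10 genes, and in 77.7% of 50 kb tiles. These values describe 10 genes, of which each was measured in the same 2 lists, and are given without a p. Tiles of 10 kb and of 140 kb had medians of 48.1% and 48.6% in list 1 and of 16.9% and 22.3% in list 2.

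The base pairs of the bodies covered in list 2 were mostly covered in list 1 as well. List 1 covered 330 kb of the 10 bodies and list 2 160 kb, and 140 kb were covered in both, which was 42.4% of the list 1 length and 87.6% of the list 2 length. List 1 by itself covered 53.2% of the body length, and 45.0% of the chromosomes up to their last peaks. The same overlap over the whole lists was not computed, so whether it is particular to these genes is not known. Where list 2 had a peak, the shared part of its length was lowest in ASZ1 at 74.0% and highest in MAEL at 100%.

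Peaks in the bodies had folds close to those beside them. The median fold was 1.66 over 84 body peaks and 1.64 over 212 flank peaks in list 1, and 2.10 over 69 body peaks and 2.13 over 157 flank peaks in list 2. Over the whole lists the medians were 1.64 and 2.12. The folds are the authors' values and describe peaks within a list. Median peak width was 2654 bp in the bodies and 2006 bp in the flanks in list 1, and 1705 bp and 1646 bp in list 2. A q of 0.05 or less was reached by 0 of the 84 and 2 of the 69 body peaks, and by 0 and 3 of the flank peaks. Over the whole lists, 0.19% of the peaks of list 1 and 2.07% of those of list 2 reached it. The shares above thus rest almost wholly on peaks that did not reach this limit, as do the lists at large.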

How the data were processed

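Chromatin of fixed U2OS cells was precipitated with an H3K9me3 antibody or kept as input, per the labels' protocols. Whether samples of 1 group are separate cultures is not stated in the labels. bcl2fastq 2.17, Trim Galore 0.6.7, Bowtie2 2.5.0, MACS2 2.2.7.1 and hg19 are named in the submitters' processing notes, without role or order. Not given in the sources used here are cutoff and control of the peak calls and the treatment of duplicates and pooling. For each peak the authors deposited a fold enrichment, a ratio of signal over background. Each peak's −log10 p-value and −log10 q-value are the authors' deposited values too. Depth is unknown.

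Gene extents came from the naming rule, and members and lists were chosen with earlier results of these data known. All 10 members are named. Covered shares were computed with numpy 2.4.6 and pandas 2.3.3 in Python 3.11.15 and figures with matplotlib 3.10.9. Overlap needed 1 bp, and a peak crossing a body edge was counted with the body. Background tiles were consecutive 50 kb stretches, or stretches of a member's length, with 100 kb flanks, leaving out those that touched peak-free stretches of at least 1 Mb. Neighbours are the next protein-coding genes in RefSeq on GRCh38.p14, used for order only. Strand came from general knowledge and equalled that of the promoter table for the 9 matched genes. Coordinates are 1-based hg19, except for promoters. The coverage step was tested on simulated data, where 80 of 80 values equalled a base-by-base count. Alternatives were stricter peaks, base pairs in both lists, and other flanks, body extents and start zones.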

Additional observations from a re-analysis of the deposited data

How the results depend on the processing

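No paired analysis was possible because neither list belongs to a sample. Depth is unknown, and few peaks passed a q of 0.05, which limits that setting. The cause of the changes below was not tested. With q of 0.05 or less, 0 genes in list 1 and 1 in list 2 had bodies covered above flanks, the median body minus flanks was 0 in both lists, the median body share was 0 in list 1 and 0 in list 2, no start zone held a peak (0 in both), and TDRD1 in list 2 gave -1.39 points. With peaks above the median fold, the list 2 median body share was 1.57% and 6 of its start zones held a peak, the list 1 median difference turned to 1.19 points, ASZ1 in list 1 to 4.53 and TDRD1 in list 2 to -6.22. At the lowest −log10 p of list 2, the list 1 median body share was 1.45%, 5 start zones held a peak, and ASZ1, DDX4 and MAEL turned to 3.08, -11.5 and -27.5 points. With base pairs in both lists, the list 1 median share was 13.2% and the median difference -3.11, and DDX4 and MAEL turned to -3.25 and -15.0. The list 1 median difference was -8.16 with flanks of 50 kb, -0.44 with 200 kb, -1.73 with flanks 10 kb away and -0.29 with bodies widened by 5 kb, which turned MAEL in list 2 to 3.24. In list 2 the median was -5.39 with flanks of 200 kb, which turned DDX4 in list 2 to 4.28. Leaving out the q limit, TDRD9 stayed above its flanks under all 7 alternatives in list 1 (2.88 to 54.1 points) and all 6 in list 2 (17.0 to 30.1). DAZL, SYCP3, HORMAD1 and BRDT stayed below theirs under the same alternatives. SYCP3 and HORMAD1 held no body peak in either list, and DAZL held none in list 2. For these, stricter peaks or other flanks could not turn the direction, and only a wider body could.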
